A study of Mus musculus with 6 samples.

Results

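Members of the vascular endothelial growth factor (VEGF) and platelet-derived growth factor (PDGF) families are secreted proteins that act on receptor tyrosine kinases at the surface of neighbouring cells. VEGF-A drives the growth and leakiness of blood vessels, VEGF-C that of lymphatic vessels, and the PDGFs direct the growth and migration of mesenchymal cells, pericytes and glial progenitors. PDGF-A, PDGF-B and VEGF-C are cut by proteases inside or outside the cell before they are fully active, and PDGF-C and PDGF-D are released as latent proteins that need such a cut. Transcription of Vegfa is a textbook target of hypoxia-inducible factor (HIF), which is held low by prolyl hydroxylases and the VHL protein while oxygen is sufficient.

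Of these families, 10 genes were taken by their symbols: the ligands Vegfa, Vegfb, Vegfc, Pdgfa, Pdgfb, Pdgfc and Pdgfd, and the receptors Flt1, Pdgfra and Pdgfrb. They are 10 of 46603 gene identifiers in the count data, and all 10 passed the filter on low counts that left 15226 genes for testing. The choice of these genes, and of the gene lists used below, was by name but with earlier results of these data known.

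The study asked which signals enteric glial cells (EGCs), which surround the neurons of the gut, pass on to monocytes and macrophages (Mφs). EGCs were grown from neurospheres, floating clusters of neural progenitor cells, which had been prepared from the intestine of C57BL/6J embryos at embryonic day 14.5. The 3 control libraries came from untreated cells, and the 3 LPS libraries from cells given 100 ng/ml lipopolysaccharide (LPS, from the outer membrane of Gram-negative bacteria) for 12 h. No allele or agent other than LPS separates the groups in the labels, the embryos behind a library were not stated, and nothing said that the libraries of 1 group came from separate cultures, so that p-values measure the spread between these libraries, which may be technical.

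The libraries held between 18775316 and 23664312 counts. Levels are given as CPM, counts per 1e+06 counts of a library after its size was multiplied by a TMM (trimmed mean of M-values) factor, and differences as log2 fold changes of LPS over control with their standard error (SE). A gene was called when the edgeR quasi-likelihood F-test gave an adjusted p-value under 0.05 over all 15226 genes. The libraries numbered 3 stood apart from the others in both groups: the mean chi-square per gene between replicates 1 and 2 was 7.45 in control and 7.69 in LPS, whereas comparisons with replicate 3 gave 69.4 to 150. The summed level of 12 macrophage markers, among them Lyz2, Csf1r and Itgam, was 3878, 4974 and 11592 CPM in control and 4025, 5230 and 19239 CPM in LPS, highest in the library numbered 3 of each group, with no marker at or under 3 counts in all libraries. Because the libraries numbered 3 deviated together, a second fit with the replicate number as a block is given where it changed a call or a count described here. No label gives this pairing. It was taken from the same data, so the adjusted p-values of the block fit may be too small. Of 10 glial markers, 9 passed the filter, among them Sox10 at 73.8 to 101 CPM over the 6 libraries, whereas Gfap was at 2.23 to 7.22 CPM. In LPS 1 glial marker was called lower (S100b, log2 fold change -1.91, adjusted p = 0.0238) and 1 higher (Fabp7, 1.29, 0.0122), and with the replicate block 1 lower and 2 higher. Markers of fibroblasts (10 genes, Col1a1 and Dcn among them) summed to 16430 to 17379 CPM and glial markers to 355 to 486 CPM, both from cultures labelled as EGCs, and in bulk samples fewer cells of a type and less RNA per cell cannot be told apart.

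Among the 10 genes, 3 were called higher in LPS (Vegfa, Vegfc and Pdgfra), beside 9.09% of all tested genes, and 0 were called lower, beside 6.71% of all tested genes and 15.8% in either direction. The same 3 genes were those whose groups did not overlap in CPM, a pattern that 38.7% of all tested genes showed, 19.3% with LPS higher and 19.4% with LPS lower. At an unadjusted p under 0.05 the count of lower members was also 0, beside 16% of all tested genes. DESeq2, limma-voom and the exact test of edgeR called 0 members lower as well, beside 11%, 6.05% and 7.99% of all tested genes. With the replicate block, 4 members were called higher, with Flt1 added, and 3 lower (Vegfb, Pdgfc and Pdgfd), beside 15.4% higher, 14.9% lower and 30.3% in either direction of all tested genes. With both libraries numbered 3 left out, 6 members were called higher and 4 lower, beside 22.6% and 20.4% of all tested genes. The median log2 fold change of the 10 genes was 0.35, beside a median of -0.02 over all tested genes.

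**Figure D1:**
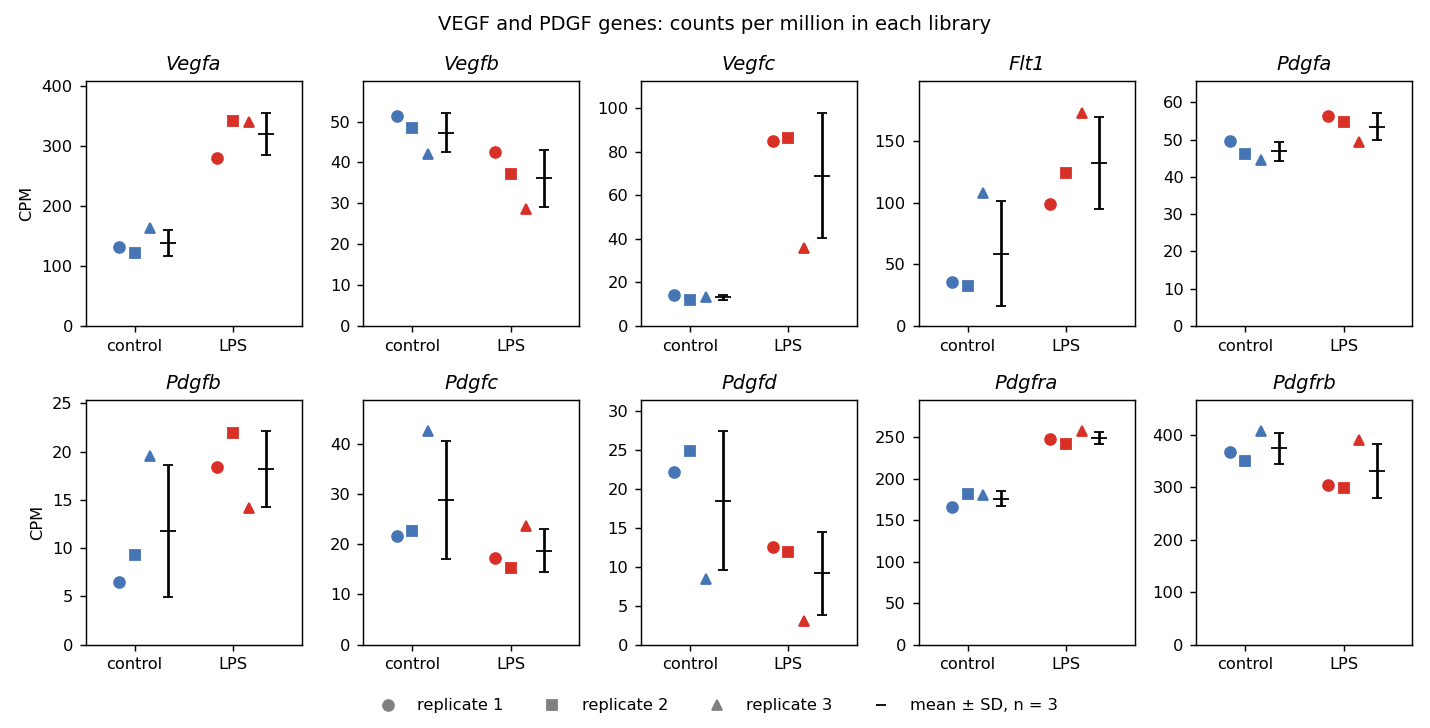
CPM of the 10 VEGF and PDGF genes in each of the 6 libraries, 1 panel per gene with its own axis from 0; symbols mark the replicate number, and bars give mean ± SD of 3 libraries. Vegfa, Vegfc and Pdgfra show no overlap between groups, and the library numbered 3 lies away from the other libraries of its group for Flt1, Pdgfb, Pdgfc and Pdgfd in control and for Vegfc and Pdgfd in LPS.

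The stretches of 250 bases before the transcription start of the 3 called genes are shown because these are the members that rose together. They are from RefSeq on GRCm38.p6, in the direction of transcription, and capitals mark matches to the motifs searched.

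Vegfa, chr17:46032378-46032627, minus strand: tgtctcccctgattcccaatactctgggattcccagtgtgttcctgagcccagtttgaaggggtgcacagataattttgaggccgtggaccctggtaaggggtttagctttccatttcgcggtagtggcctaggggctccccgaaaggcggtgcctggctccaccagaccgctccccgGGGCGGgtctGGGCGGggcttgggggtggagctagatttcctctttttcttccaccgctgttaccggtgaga

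Vegfc, chr8:54077282-54077531, plus strand: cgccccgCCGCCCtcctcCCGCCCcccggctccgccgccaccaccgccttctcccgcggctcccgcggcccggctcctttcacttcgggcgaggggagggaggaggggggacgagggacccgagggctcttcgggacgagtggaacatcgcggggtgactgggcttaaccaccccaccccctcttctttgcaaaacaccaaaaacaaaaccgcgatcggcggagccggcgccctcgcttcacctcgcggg

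Pdgfra, chr5:75152001-75152250, plus strand: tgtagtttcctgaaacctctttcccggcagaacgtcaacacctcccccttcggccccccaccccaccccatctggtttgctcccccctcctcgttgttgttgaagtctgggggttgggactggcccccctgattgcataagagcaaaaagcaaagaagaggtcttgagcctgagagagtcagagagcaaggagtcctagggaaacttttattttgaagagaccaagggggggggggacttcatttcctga

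Motifs were searched on both strands of the RefSeq window from 250 bases before to 50 bases after the start, and no 2 of the matches shown overlap. The motifs were ACGTG (the core of a hypoxia response element), GGGCGG (the GC box bound by SP factors), an NF-κB-like motif in a wider and a narrower form, and TGANTCA (AP-1). The Vegfa window held 2 GC boxes on the strand printed, 72 and 62 bases before the start. The Vegfc window held 2 on the opposite strand, 243 and 232 bases before the start, and the Pdgfra window held none. GGGCGG occurs in 35.7% of all 32851 windows of this length. None of these windows of Vegfa, Vegfc and Pdgfra held ACGTG, an NF-κB-like match or TGANTCA, which occur in 19.6%, 5.34% (1.63% for the narrower NF-κB-like form) and 7.81% of all windows. Another RefSeq start of Vegfa, inside the gene, had 1 ACGTG match in its window, 211 bases before that start on the opposite strand. That window also held 1 GC box, 158 bases before the start on the strand of transcription. Bases outside these windows were not searched. A match is a string of letters and not a bound site, and binding was not measured.

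Vegfa, the principal ligand of blood vessel growth (GRCm38, chromosome 17, 46016993 to 46032369, minus strand), was at 132, 121 and 163 CPM in the control libraries and at 279, 340 and 339 CPM in the LPS libraries. Every LPS library lay above every control library, and the means were 138 ± 21.9 and 320 ± 34.8 CPM (SD, n = 3). This was a 2.31-fold rise, with a log2 fold change of 1.21 (SE 0.15, 95% interval 0.85 to 1.57) and an adjusted p of 0.00637. Within the pairs of libraries with the same number, the log2 difference was 1.08, 1.50 and 1.06. Vegfa was the only member called in all 16 alternatives, with adjusted p from 4.07e-10 to 0.0438 and log2 fold changes from 1.05 to 1.36.

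Vegfb, a further ligand of FLT1 (chromosome 19, 6982473 to 6987651, minus strand), was at 51.4, 48.5 and 42.0 CPM in control and at 42.4, 37.2 and 28.5 CPM in LPS. The lowest control library lay just under the highest LPS library, so the groups overlapped. Vegfb had a log2 fold change of -0.39 (SE 0.17, 95% interval -0.80 to 0.02, adjusted p = 0.169). The LPS library was lower in each numbered pair, by -0.27, -0.38 and -0.56 on the log2 scale, and the fit with the replicate block called Vegfb lower (log2 fold change -0.40, adjusted p = 0.0250).

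Vegfc, the ligand of lymphatic vessel growth (chromosome 8, 54077606 to 54187096, plus strand), had the largest change among the 10 genes. Its control libraries stood at 14.1, 12.1 and 13.2 CPM and its LPS libraries at 85.0, 86.3 and 35.7 CPM. All LPS libraries were above all control libraries, and LPS replicate 3 was far below the other two. The means were 13.2 ± 0.992 and 69.0 ± 28.8 CPM (SD, n = 3), a 5.24-fold rise with a log2 fold change of 2.39 (SE 0.35, 95% interval 1.52 to 3.26, adjusted p = 0.0117). The call was lost without control replicate 1 (2.45, adjusted p = 0.0588) and without control replicate 2 (2.34, adjusted p = 0.0729). It held in the other 14 alternatives, with adjusted p from 2.60e-09 to 0.0495. The call held narrowly without LPS replicate 1 (adjusted p = 0.0436) and without LPS replicate 2 (0.0495). Without LPS replicate 3 the log2 fold change was 2.70 (adjusted p = 0.000135).

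Flt1 encodes VEGF receptor 1, which binds VEGF-A, VEGF-B and placental growth factor and is found on endothelium, monocytes and Mφs (chromosome 5, 147561604 to 147726011, minus strand). It was at 36.0, 32.1 and 108 CPM in control and at 99.4, 124 and 173 CPM in LPS. Control replicate 3 lay above LPS replicate 1, and the library numbered 3 was the highest of its group on both sides. For Flt1 the log2 fold change was 1.17 (SE 0.52, 95% interval -0.10 to 2.45, adjusted p = 0.184). The log2 difference was 1.47, 1.96 and 0.68 within the numbered pairs, and with the replicate block Flt1 was called higher (1.36, adjusted p = 0.0234). Without control replicate 3 it was called as well (1.97, adjusted p = 0.0146), whereas with each other library left out the adjusted p was between 0.236 and 0.394. The macrophage marker sum was also highest in the libraries numbered 3, and 1 of its 12 markers (Adgre1) was called higher and 0 lower by edgeR. With the replicate block this list split, with 5 markers called higher (Adgre1, Ptprc, Fcgr1, Cd14 and Aif1) and 4 lower (Cd68, Cx3cr1, Mrc1 and Tyrobp). Endothelial markers summed to 35.0, 43.2 and 64.6 CPM in control and 18.2, 21.1 and 22.4 CPM in LPS, with Tie1 and Cldn5 at most at 0.419 and 0.223 CPM and Sox17 at or under 3 counts in every library. Of the 6 tested endothelial markers 1 (Vwf) was called lower and 0 higher, and with the replicate block 2 were called higher, Pecam1 (adjusted p = 0.0246) and Cdh5 (0.0306). Pecam1 was at 0.593, 0.841 and 3.06 CPM in control and at 1.14, 1.62 and 6.12 CPM in LPS, and Cdh5 at 0.339, 0.221 and 0.661 CPM and at 0.593, 0.836 and 2.88 CPM, both highest in the libraries numbered 3 as Flt1 was. Emcn had the opposite order, at 12.97, 11.4 and 0.661 CPM in control and at 6.42, 6.13 and 0.837 CPM in LPS. Tek was also lowest in both libraries numbered 3. Erg was lowest in control replicate 3 but highest in LPS replicate 3, at 0.297, 0.502 and 1.15 CPM in LPS. Vwf was highest in control replicate 3, at 16.5, 26.1 and 56.7 CPM in control and 7.46, 9.70 and 8.85 CPM in LPS. The part of either cell type in the Flt1 values was not tested.

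Pdgfa, a ligand of PDGF receptor alpha (chromosome 5, 138976014 to 138997370, minus strand), was at 49.7, 46.1 and 44.7 CPM in control and at 56.3, 54.8 and 49.3 CPM in LPS. LPS replicate 3 lay inside the control range and the other LPS libraries above it. The log2 fold change of 0.19 (SE 0.085, 95% interval -0.02 to 0.40, adjusted p = 0.186) did not pass the test, and it was 0.04 on library size alone. Of the merged exon bases of Pdgfa, 26.1% are shared with the antisense gene 6330403L08Rik, and the strand setting of the counting was not given in the sources used here, so reads of both genes cannot be told apart there. For Pdgfc and Pdgfra the share of merged exon bases that other genes overlap is 2.89% and 6.5%, and for the other members it is 0.

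Pdgfb, a ligand of both PDGF receptors that recruits pericytes (chromosome 15, 79995874 to 80014977, minus strand), was at 6.53, 9.30 and 19.5 CPM in control and at 18.4, 22.0 and 14.1 CPM in LPS. Control replicate 3 was higher than 2 of the LPS libraries. The log2 fold change was 0.62 (SE 0.42, 95% interval -0.42 to 1.67, adjusted p = 0.367). Within the numbered pairs, the log2 difference was 1.50, 1.24 and -0.47, so that Pdgfb was the one member whose pairs differed in direction. Without control replicate 3 Pdgfb was called higher (1.22, adjusted p = 0.0460), and with the other libraries left out in turn its log2 fold change was 0.34 to 0.77 with no call.

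Pdgfc, a latent ligand of PDGF receptor alpha (chromosome 3, 81036416 to 81214040, plus strand), was at 21.6, 22.6 and 42.5 CPM in control and at 17.2, 15.3 and 23.6 CPM in LPS. The groups overlapped through LPS replicate 3, which lay above the lower control libraries. The estimate was a log2 fold change of -0.63 (SE 0.32, 95% interval -1.41 to 0.15, adjusted p = 0.237), and -0.22 without control replicate 3 (adjusted p = 0.500). All pairs went the same way, at -0.32, -0.56 and -0.85, and the replicate block gave a call (-0.58, adjusted p = 0.0296).

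Pdgfd, a latent ligand of PDGF receptor beta (chromosome 9, 6168584 to 6378850, plus strand), was at 22.2, 24.9 and 8.35 CPM in control and at 12.5, 11.9 and 3.04 CPM in LPS. In both groups the library numbered 3 was the lowest, and that of control lay under LPS replicates 1 and 2. LPS over control was -1.01 on the log2 scale (SE 0.63, 95% interval -2.55 to 0.53, adjusted p = 0.326), and -0.60 without LPS replicate 3 (adjusted p = 0.413). The pairs differed by -0.83, -1.06 and -1.46, and with the replicate block Pdgfd was called lower (-1.09, adjusted p = 0.0110). Markers of interstitial cells of Cajal (Kit, Ano1 and Etv1), the pacemaker cells of the gut, had a similar order over the libraries, with sums of 203, 204 and 68.2 CPM in control and 87.0, 78.4 and 50.5 CPM in LPS. Of the 3 markers, 1 (Kit) was called lower, or 2 (Kit and Ano1) with the replicate block, none was at or under 3 counts in all libraries, and their part in the Pdgfd values was not tested.

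Pdgfra, the receptor for PDGF-A and PDGF-C and a marker of mesenchymal cells of the gut wall (chromosome 5, 75152292 to 75198215, plus strand), was at 166, 181 and 180 CPM in control and at 247, 242 and 257 CPM in LPS. The libraries of each group lay close together and well apart from those of the other group, at 176 ± 8.69 and 249 ± 7.47 CPM (SD, n = 3). The rise was 1.41-fold, with a log2 fold change of 0.50 (SE 0.073, 95% interval 0.32 to 0.68, adjusted p = 0.0114), and the pairs gave 0.58, 0.42 and 0.51. The call was lost without control replicate 1 (0.47, adjusted p = 0.0582), control replicate 2 (0.53, 0.0651), LPS replicate 1 (0.51, 0.0513) and LPS replicate 2 (0.52, 0.0520), and it held in the other 12 alternatives, where the smallest adjusted p was 1.26e-09. On library size alone, which moved the median of all genes to -0.18, the value was 0.35 (adjusted p = 0.0232). The sum of the 10 fibroblast markers, most of it from collagen genes, was 16430 to 17080 CPM in LPS and 16916 to 17379 CPM in control. Single markers moved both ways, with 1 called higher (Dcn, log2 fold change 0.90, adjusted p = 0.0118) and 1 lower (Fbln1, -0.42, 0.0487), and with the replicate block Lum and Thy1 were called lower as well. Their part in the Pdgfra values was not tested.

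Pdgfrb, the receptor for PDGF-B and PDGF-D that marks pericytes and other mural cells (chromosome 18, 61045150 to 61085061, plus strand), was at 367, 349 and 406 CPM in control and at 304, 299 and 389 CPM in LPS. LPS replicate 3 lay between the control libraries. The log2 fold change was -0.18 (SE 0.13, 95% interval -0.50 to 0.15, adjusted p = 0.410), and the pairs gave -0.27, -0.23 and -0.06. With 1 library left out the value was -0.31 to -0.10 with no call. Without both libraries numbered 3 Pdgfrb was called lower (-0.22, adjusted p = 0.0164), in a fit that called 20.4% of all tested genes lower. The 7 pericyte markers summed to 544, 559 and 672 CPM in control and 313, 332 and 542 CPM in LPS, with 1 (Notch3) called lower, 0 called higher and none at or under 3 counts in all libraries. With the replicate block 2 (Notch3 and Anpep) were called lower and 1 (Rgs5) higher. Smooth muscle markers summed to 2516, 2523 and 2290 CPM in control and 911, 891 and 640 CPM in LPS, with all 7 of 8 markers that passed the filter, Acta2 and Tagln among them, called lower. The part of these cells in the Pdgfrb values was not tested.

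**Figure D2:**
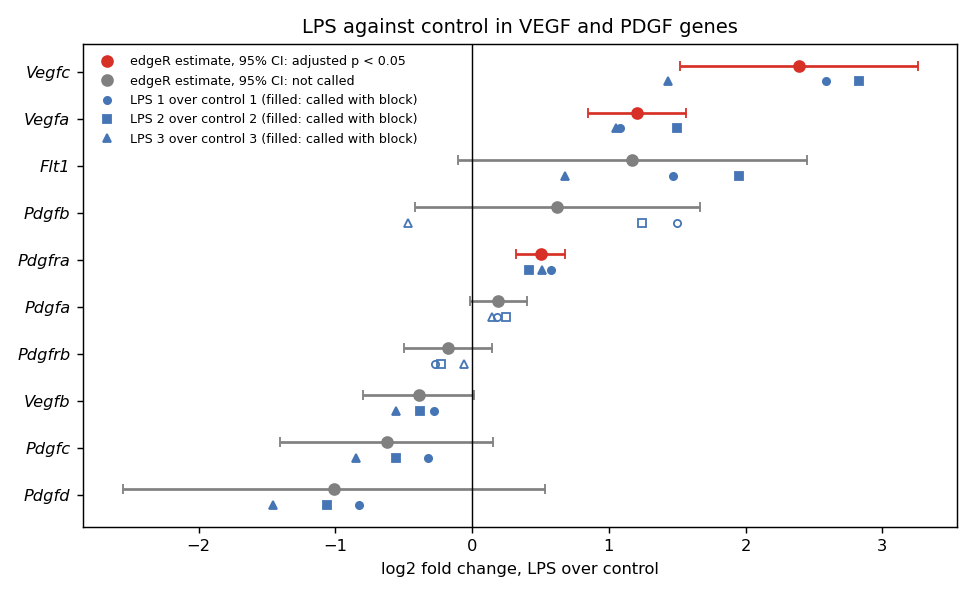
Log2 fold change of LPS over control for the 10 genes with its 95% interval from the edgeR fit (large points, red where called) and the log2 difference within each pair of libraries with the same number (small symbols, filled where the fit with the replicate block called the gene). Vegfc at 2.39, Vegfa at 1.21 and Pdgfra at 0.50 have red points, and Pdgfb has pairs on both sides of 0.

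The stability of the 3 calls was read over the alternatives. The same 3 members were called higher, and 0 lower, with RLE factors, upper-quartile factors, library size alone, no filter on low counts, a minimum of 10 counts in each library, limma-voom, DESeq2 and the exact test of edgeR, settings in which 9.44%, 6.90%, 6.48%, 4.48%, 8.71%, 8.21%, 13.7% and 9.39% of all tested genes were called higher. In the first 5 of these settings 6.48%, 10.4%, 13.5%, 3.28% and 7.01% were called lower. Leaving out control replicate 1, 2 or 3 gave 1, 1 and 5 members called higher beside 3.03%, 2.44% and 7.52% of all tested genes. Leaving out LPS replicate 1, 2 or 3 gave 2, 2 and 3 members beside 3.98%, 3.36% and 12.6%. No member was called lower in these 6 fits, in which 1.25%, 0.72% and 6.66% (control replicates) and 1.44%, 1.04% and 9.13% (LPS replicates) of all tested genes were. Each of the 10 genes kept the sign of its fold change in all 16 alternatives.

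Levels of different genes were compared as CPM per kilobase of merged exon. In control, Pdgfrb was the highest at 68.3, followed by Vegfa at 32.3, Vegfb at 29.5, Pdgfra at 17.5 and Pdgfa at 15.02 CPM per kb. The other 5 genes lay between 2.83 (Pdgfb) and 5.86 (Pdgfd) CPM per kb, and each of them overlapped its neighbour in that order, as did Vegfa and Vegfb. In LPS, Vegfa was first at 74.6 CPM per kb with a range that overlapped that of Pdgfrb at 60.4, and Vegfc moved up from 5.37 to 28.2 CPM per kb, next in order after Pdgfrb and overlapping Pdgfra at 24.8. Vegfb at 22.5 and Pdgfa at 17.1 CPM per kb also overlapped their neighbours above. Flt1 followed at 9.79 CPM per kb, apart from its neighbours, and Pdgfb, Pdgfc and Pdgfd lay at 4.37, 3.68 and 2.90 CPM per kb with overlapping ranges. Vegfa was higher than the receptor gene Flt1 per unit length in both groups, at 32.3 against 4.34 CPM per kb in control and 74.6 against 9.79 CPM per kb in LPS.

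**Figure D3:**
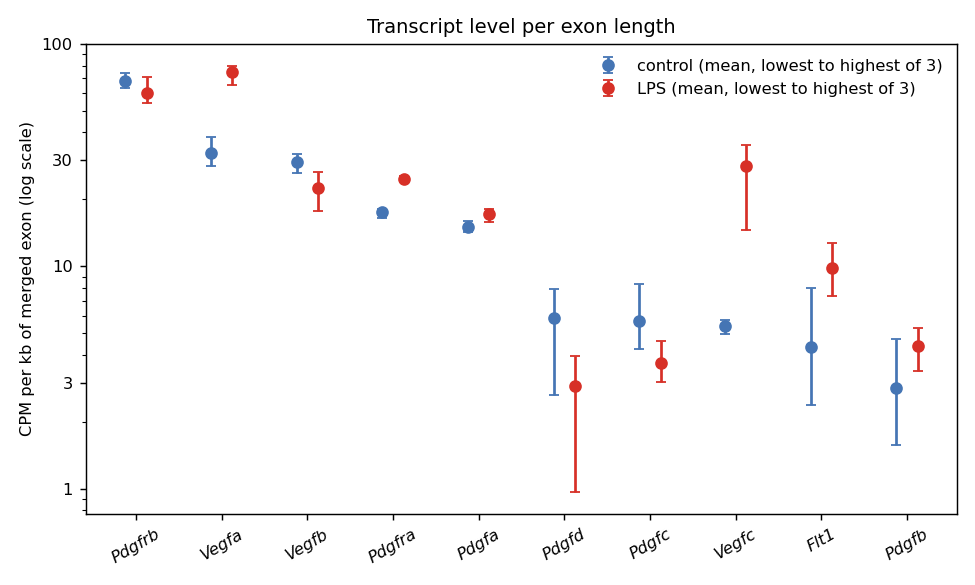
Mean CPM per kilobase of merged exon for each gene in control and LPS, on a log axis, with bars from the lowest to the highest of 3 libraries; genes are in the order of their control means. Vegfc moves from 5.37 to 28.2 and Vegfa from 32.3 to 74.6, whereas Pdgfrb stays at 68.3 and 60.4.

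Balances between pairs of genes were read as log2 ratios of counts within each library, which do not depend on the scaling of libraries. For 3 against 3 libraries the smallest p of a two-sided exact permutation test is 0.1, so none of the 6 pairs could pass 0.05. Pdgfra over Pdgfrb was at -1.15, -0.94 and -1.17 in control and at -0.30, -0.30 and -0.60 in LPS, with no overlap and a difference of 0.69 (exact p = 0.1, adjusted over 6 pairs 0.3). Vegfa over Vegfb was at 1.36, 1.31 and 1.95 in control and at 2.72, 3.19 and 3.57 in LPS, also without overlap, and differed by 1.62 (exact p = 0.1, adjusted 0.3). Relative to Pdgfrb and Vegfb, Pdgfra and Vegfa were thus higher in every LPS library than in any control library. The other pairs overlapped: Vegfa over Vegfc differed by -1.07 (exact p = 0.2, adjusted 0.3), Pdgfc over Pdgfa by -0.77 (exact p = 0.2, adjusted 0.3), Pdgfa over Pdgfb by -0.57 (exact p = 0.4, adjusted 0.48) and Vegfa over Flt1 by -0.16 (exact p = 0.6, adjusted 0.6). Within the numbered pairs, Vegfa over Vegfc was lower in LPS by -1.51, -1.33 and -0.38 and Pdgfc over Pdgfa by -0.50, -0.81 and -0.99, whereas Pdgfa over Pdgfb and Vegfa over Flt1 differed in sign between pairs. Leaving out control replicate 1 or 3 moved Pdgfa over Pdgfb to -0.17 or -1.04, and leaving out control replicate 3 moved Pdgfc over Pdgfa to -0.42. For Vegfa over Flt1 the value was 0.05, 0.070 and -0.59 without control replicates 1, 2 and 3, and -0.25, -0.23 and 0.01 without LPS replicates 1, 2 and 3.

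**Figure D4:**
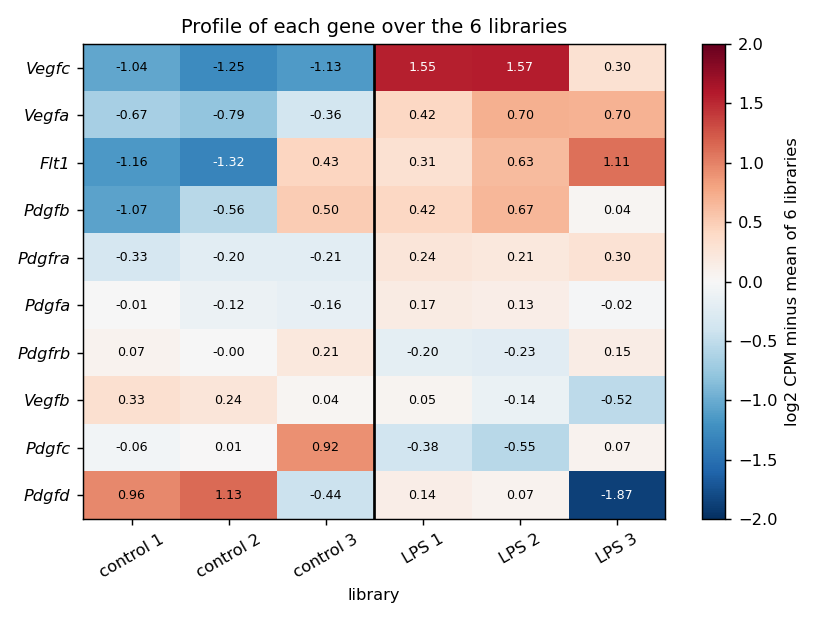
Profile of each gene over the 6 libraries as log2 CPM (prior count 2) minus the mean of that gene, with the value in each cell; the line separates control from LPS. Vegfa and Pdgfra are below 0 in all control and above 0 in all LPS libraries, as is Vegfc, and Flt1, Pdgfb and Pdgfd vary widely among the control libraries.

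In profile over the 6 libraries, measured as the Euclidean distance between centred log2 CPM values, the closest members were Pdgfa and Pdgfra at 0.48. Among 11479 tested genes with a mean of at least 5 CPM, those nearest to Vegfa were 5730559C18Rik (0.058), Acvr1b (0.19) and Slc48a1 (0.21), and those nearest to Vegfc were Sod3 (0.29), Lif (0.38) and Ripk2 (0.38). Flt1 was nearest to Ltbp2 (0.49), Egr2 (0.51) and Csf2rb (0.61), and Pdgfd to Dlk1 (0.19), Kitl (0.38) and Cav1 (0.42). The nearest to Pdgfra were Uspl1 (0.068), 1500011B03Rik (0.073) and March5 (0.078). For Pdgfb they were Rpl3-ps2, Podxl and Shisa3 (0.36 to 0.59), and for Pdgfc Dusp7, Tmem180 and Gas2l3 (0.077 to 0.21). Members with small changes had close neighbours, namely Prkar2a and Xrcc5 for Vegfb (0.076 and 0.077), Ttll4, Prdm4 and Tex10 for Pdgfa (0.048 to 0.071) and Zmym5, Tomm40l and Fam122a for Pdgfrb (0.067 to 0.075). These distances describe 6 libraries that share their treatment groups.

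The remaining ligands, receptors and co-receptors of both families were 7 genes, of which 1 was called higher and 1 lower, close to the 9.09% and 6.71% of all tested genes, with a median log2 fold change of 0.01 beside -0.02 over all genes. Nrp2, a co-receptor for VEGF-C, was at 405, 430 and 482 CPM in control and at 826, 773 and 636 CPM in LPS, a rise without overlap (log2 fold change 0.76, SE 0.13, adjusted p = 0.0173). Nrp1, a co-receptor for VEGF-A, was at 249, 283 and 454 CPM in control and at 161, 155 and 180 CPM in LPS, a fall without overlap (-0.99, SE 0.24, adjusted p = 0.0427). The neuropilins thus went in opposite directions. The call of Nrp2 was lost without control replicate 1 or 2 or LPS replicate 1 or 2 (adjusted p up to 0.0958), and that of Nrp1 without any of these or LPS replicate 3 (up to 0.150), whereas the log2 fold changes were 0.68 to 0.86 and -1.15 to -0.67 with 1 library left out.

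Pgf, placental growth factor, was at 1.19, 1.42 and 2.03 CPM in control and at 9.49, 17.1 and 2.30 CPM in LPS, with all LPS libraries higher but replicate 3 close to control (2.64, SE 0.72, adjusted p = 0.0605). Figf, which encodes VEGF-D, was at 160, 134 and 21.6 CPM in control and at 23.5, 20.5 and 5.18 CPM in LPS (-2.68, SE 0.88, adjusted p = 0.0958), and the replicate block called it lower (-2.56, adjusted p = 0.00170). Its libraries numbered 3 were the lowest of each group, as for Pdgfd. Flt4, the receptor for VEGF-C and VEGF-D, was at 13.8, 13.2 and 5.74 CPM in control and at 33.9, 31.3 and 8.53 CPM in LPS (1.17, SE 0.59, adjusted p = 0.231), and with the replicate block it was called higher (1.06, adjusted p = 0.0160). Kdr, the main signalling receptor for VEGF-A on endothelium, was at 9.58, 8.99 and 13.7 CPM in control and at 5.98, 5.80 and 11.6 CPM in LPS (-0.47, adjusted p = 0.387). The LPS library was the lower one in each numbered pair (-0.68, -0.63 and -0.24), the value was -0.87 to -0.24 with 1 library left out, and Kdr was not called in any of those fits or with the block (adjusted p = 0.0561). Pdgfrl, a PDGF receptor-like gene, had a log2 fold change of 0.01 (adjusted p = 0.946). With the block the list thus had 2 genes called higher and 2 lower, beside 15.4% and 14.9% of all tested genes. Of 4 lymphatic endothelial markers, Pdpn rose (1.66, adjusted p = 0.0103), whereas Prox1 had a log2 fold change of -0.23 (adjusted p = 0.612) at up to 3.64 CPM and Lyve1 one of -0.31 (0.760) at up to 0.678 CPM.

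Enzymes and a cofactor that cut or help to cut these ligands numbered 10, of which 3 were called higher and 1 lower, beside 9.09% and 6.71% of all tested genes, with a median log2 fold change of 0.42 beside -0.02. Plat, tissue plasminogen activator, which activates PDGF-C, was at 190, 189 and 171 CPM in control and at 286, 287 and 275 CPM in LPS (0.63, SE 0.076, adjusted p = 0.00641). It was the one gene of this list called with each library left out (adjusted p up to 0.0455). Plau, urokinase, which activates PDGF-D, was at 89.7, 124 and 216 CPM in control and fell to 35.0, 39.3 and 54.2 CPM in LPS (-1.74, SE 0.36, adjusted p = 0.0291). Ccbe1, the cofactor for VEGF-C processing, rose from 44.2, 42.9 and 42.0 CPM to 75.4, 69.4 and 60.2 CPM (0.67, SE 0.099, adjusted p = 0.0117). Furin, the proprotein convertase that cuts PDGF-A, PDGF-B and VEGF-C, rose from 161, 164 and 205 CPM to 249, 239 and 240 CPM (0.46, SE 0.11, adjusted p = 0.0458). None of these called genes had overlapping groups. Adamts3, the protease that works with CCBE1, was at 5.08, 5.62 and 5.74 CPM in control and 5.04, 3.51 and 4.40 CPM in LPS (-0.34, adjusted p = 0.262), and Pcsk5 had the largest positive log2 fold change at 1.09 without a call (adjusted p = 0.107). The call of Plau was lost without control replicate 2, LPS replicate 1 or LPS replicate 2 (adjusted p up to 0.116), that of Ccbe1 without control replicate 1 or 2 or LPS replicate 2 (up to 0.0708), and that of Furin without any library but control replicate 3 (up to 0.173). With the replicate block, 5 genes of the list were called higher, with Pcsk7 and Adamts14 added, and 3 lower, with Pcsk6 and St14 added, beside 15.4% and 14.9% of all tested genes.

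Of 20 genes of oxygen sensing and HIF targets, 10 were called higher in LPS and 0 lower, beside 9.09% and 6.71% of all tested genes, with a median log2 fold change of 1.54 beside -0.02 over all genes. The exact test of edgeR, DESeq2 and limma-voom called 13, 15 and 9 higher and 0 lower, beside 9.39%, 13.7% and 8.21% of all tested genes called higher. With the replicate block 14 were called higher, beside 15.4%, with Egln1, Egln3, Adm and P4ha1 added. The oxygen-regulated subunit gene Hif1a was at 303, 293 and 272 CPM in control and at 975, 996 and 651 CPM in LPS (1.60, SE 0.18, adjusted p = 0.00509). The glucose transporter gene Slc2a1 (2.03, adjusted p = 0.00801), the glycolysis genes Pgk1 (1.63, 0.00835), Ldha (1.60, 0.0129), Hk2 (1.39, 0.00505) and Pfkfb3 (1.59, 0.000417), and Pdk1 (1.51, 0.0338), which limits pyruvate entry into mitochondria, rose with it. Also called were the mitophagy gene Bnip3 (2.50, 0.0225), Vhl (0.93, 0.0224), whose protein marks HIF for destruction, and P4ha2 (2.85, 0.0383), a collagen prolyl hydroxylase with the largest change of the list. Epas1, which encodes HIF-2 alpha, had the lowest value at -0.49 (adjusted p = 0.381), and Arnt, the partner of both, was at -0.05 (adjusted p = 0.676). For Epas1 the numbered pairs gave 0.15, -0.17 and -1.69, and the value was -0.75 to -0.19 with 1 library left out.

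LPS replicate 3 was the lowest LPS library for 16 of the 20 genes and for 9 of the 10 called, as it was for Vegfc but not for Vegfa. The share of all tested genes with their lowest LPS value in replicate 3 was not computed, so these counts do not set the list apart. P4ha2 was at 616, 705 and 115 CPM in LPS against 71.1, 67.8 and 59.5 CPM in control, and Bnip3 at 254, 329 and 90.9 CPM against 40.3, 44.6 and 34.3 CPM. Pfkfb3 was even over the LPS libraries, at 176, 196 and 179 CPM against 64.1, 63.0 and 56.0 CPM in control. Hif1a, Pfkfb3 and Hk2 were called with each library left out (adjusted p up to 0.0426, 0.00813 and 0.0426). The number called was 4, 3 and 8 without control replicates 1, 2 and 3, beside 3.03%, 2.44% and 7.52% of all tested genes called higher. It was 5, 5 and 16 without LPS replicates 1, 2 and 3, beside 3.98%, 3.36% and 12.6%.

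Among 18 signalling proteins downstream of these receptors, 1 gene was called higher and 2 lower, near the 9.09% and 6.71% of all tested genes, with a median log2 fold change of 0.05 beside -0.02. Map2k1, which encodes the kinase MEK1, rose from 137, 140 and 142 CPM to 308, 352 and 260 CPM (1.13, SE 0.12, adjusted p = 0.00422), a call that held with each library left out (adjusted p up to 0.0392). Plcg1, phospholipase C gamma 1, fell from 102, 102 and 88.8 CPM to 70.1, 68.5 and 63.0 CPM (-0.54, SE 0.088, adjusted p = 0.0150). Pik3r1, the regulatory subunit of PI3 kinase, fell from 92.1, 97.3 and 96.5 CPM to 73.9, 72.6 and 79.6 CPM (-0.34, SE 0.069, adjusted p = 0.0278). Both falls lost their call without control replicate 1 or 2 or LPS replicate 1 or 2, and that of Pik3r1 also without control replicate 3 (adjusted p up to 0.0869 for Plcg1 and 0.135 for Pik3r1). Gab1, a docking protein, had the lowest value of the list at -0.67 without a call (adjusted p = 0.141). With the replicate block 5 genes were called higher, with Src, Nck1, Ptpn11 and Ptpn1 added, and 2 lower, beside 15.4% and 14.9% of all tested genes.

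**Figure D5:**
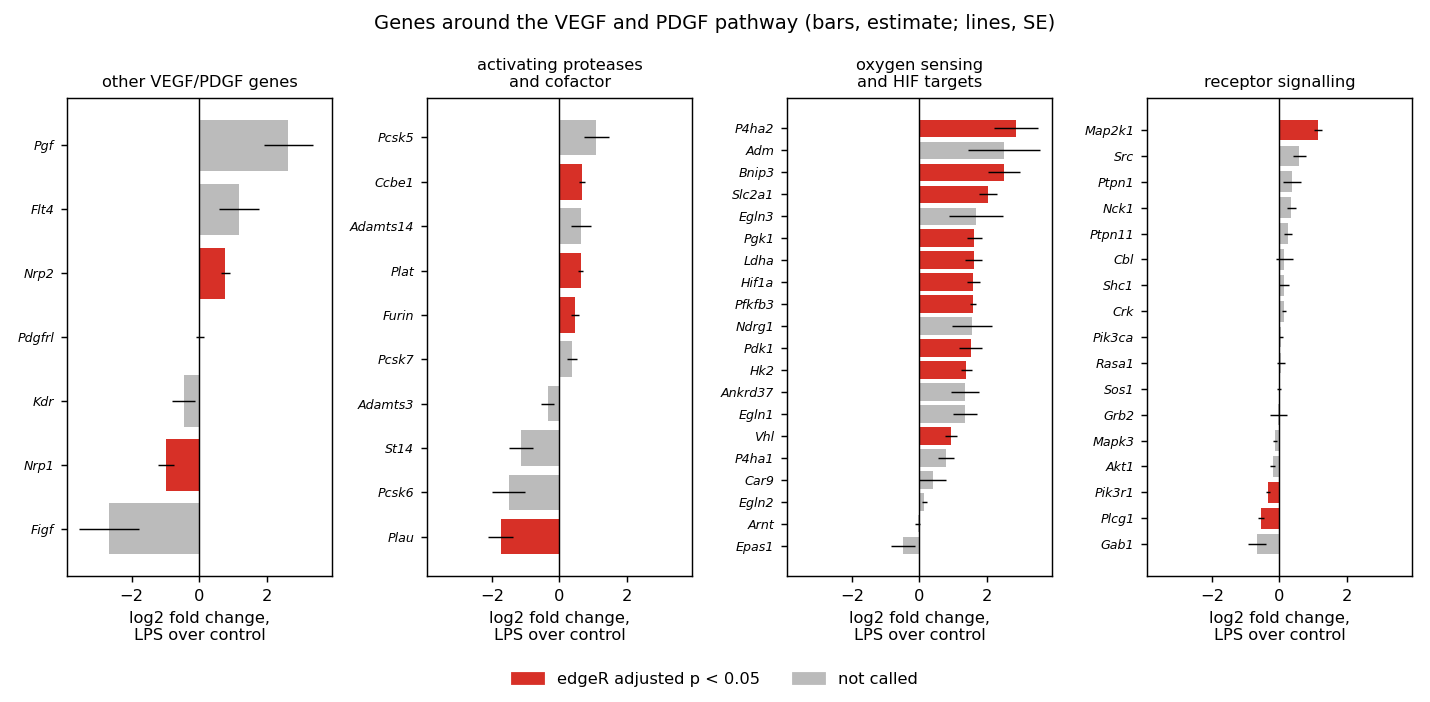
Log2 fold change of LPS over control (bars, with SE as lines) for the other VEGF and PDGF family genes, the activating proteases and cofactor, the oxygen sensing and HIF target genes and the receptor signalling genes, 1 of which, without a call, is not drawn, red where called by edgeR. Among the 20 oxygen and HIF genes 10 bars are red and all of those point to higher values in LPS, up to 2.85 for P4ha2.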

How the data were processed

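Poly(A) RNA of 6 libraries was sequenced after stranded mRNA preparation. The deposited files hold whole-number counts for each gene, made by the authors without pooling replicates. The submitters' processing notes name cutadapt 1.15, Bowtie2 2.3.3.1, STAR 2.5.2b, SAMtools 1.5, featureCounts 1.5.3 and the build GRCm38. How strand and multiply aligned reads were handled was not given in the sources used here.

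From these counts, genes were kept with filterByExpr (minimum count 10, minimum total 15), scaled with TMM factors of 0.917 to 1.08 and compared with the edgeR 4.0.16 quasi-likelihood F-test (R 4.3.3), two-sided, group as the single term, Benjamini-Hochberg adjusted over all 15226 genes. SE is the absolute log2 fold change over the square root of F. Counting floors of 3 counts lay between 0.124 and 0.167 CPM and cover counting error only. No libraries held identical values. Coordinates and exon lengths are from GENCODE M21 (46091 of 46603 identifiers matched, 98.9%), and start site windows from RefSeq, with no window used for Pdgfb and Pdgfrb. The scripts were tested on simulated data, where 32.3% of 2-fold and 76% of 4-fold changes were called and 8.47% of the calls were false. A gene without a call may therefore still differ between the groups.

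Alternatives were 3 other scalings, 2 other filters, DESeq2 1.42.0 (Wald test), limma-voom (limma 3.58.1), the exact test of edgeR, the replicate block, each library left out, and both libraries numbered 3 left out. No label explains the replicate numbers. Deviations from the group means correlated at 0.51, 0.33 and 0.61 for the numbers 1, 2 and 3, and the numbers were taken from the data as pairing. Control 1 with LPS 2 (0.42) and control 2 with LPS 1 (0.32) correlated as much, so that the data set number 3 apart and do not tell 1 from 2. Pairs of a library numbered 3 with another number were negative. This is not separate evidence, because the deviations of a gene sum to 0 within a group. The genes, the lists and the motifs were chosen with earlier results of these data known. Named were all 10 members, all other family genes, the called genes and the largest change in each direction of the further lists, and the 3 genes nearest to each member in profile. A few genes that this rule or the lists would name are counted but not reported here.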

Additional observations from a re-analysis of the deposited data

How the results depend on the processing

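The members called higher were the same 3 under each scaling, filter and other test. Leave-one-out fits called 1 to 5 members higher and 0 lower, and with both libraries numbered 3 left out 6 were called higher and 4 lower. The replicate block called 3 members lower (Vegfb, Pdgfc and Pdgfd) and changed the call of Flt1 (1.36) to higher, and it changed no other member's call. The cause of these changes was not tested.

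Over all tested genes, 1384 were called higher and 1022 lower. Upper-quartile factors gave 1589 lower and library size alone 2054, which moved the median of all genes from -0.02 to -0.12 and -0.18. DESeq2 called 2079 higher and 1673 lower, the replicate block 2343 and 2273, and the fit without both libraries numbered 3 called 3498 and 3159. Leave-one-out fits called 379 to 1964 higher and 112 to 1426 lower.

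Of the other family genes, DESeq2, the edgeR exact test and the replicate block each called 2 higher and 2 lower, leaving out both libraries numbered 3 gave 3 and 3, and leave-one-out fits gave 0 to 3 higher and 0 to 2 lower. Of the proteases, upper-quartile factors, library size alone, no filter and the exact test called 2 higher, and DESeq2 called 4 higher. Library size alone called 2 lower, and DESeq2 and the exact test 3 lower. The replicate block called 5 higher and 3 lower, and the fit without both libraries numbered 3 called 6 higher and 2 lower. Leave-one-out fits called 1 to 3 higher and 0 to 2 lower. Of the oxygen and HIF genes, 16 were called higher without both libraries numbered 3, beside 22.6% of all tested genes. Leave-one-out fits called 3 to 16 of them higher, beside 2.44% to 12.6% of all tested genes. Of the signalling genes, library size alone called 4 lower, no filter and the exact test 1 lower, DESeq2 2 higher, the replicate block 5 higher, the fit without both libraries numbered 3 called 7 higher, and leave-one-out fits 1 to 3 higher and 0 to 3 lower.

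The log2 ratio of Vegfa over Flt1 changed sign without control replicate 1 (0.05), control replicate 2 (0.070) and LPS replicate 3 (0.01), and ranged from -0.59 to 0.070 over the libraries left out. The other ratios kept their sign with each library left out and with 0.5 counts added.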
